A study of Mus musculus with 8 samples.

Results

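The genes described here are 5 genes of red blood cells: the adult α-globin genes Hba-a1 and Hba-a2, the adult β-globin genes Hbb-bs and Hbb-bt, and Alas2. They were chosen by name, not by a threshold on measured values, and are 5 of the 57010 genes in the deposited table. Retinal RNA of C57BL/6J mice aged 17 days was sequenced. All mice had oxygen-induced retinopathy (OIR), in which a period of high oxygen in early life is followed by abnormal vessel growth in the retina once the animals breathe room air again. Retinas labelled AAV_sh received a self-complementary adeno-associated virus (scAAV) meant to knock down the long noncoding RNA MM2P, and their treatment label reads "AAV KO"; retinas labelled AAV_NC received a control scAAV. There were 4 libraries in each group, and every mouse, control ones included, carried the retinopathy. The sources used here do not give the promoter or serotype of the virus, the cells it reached, or whether a library is 1 animal or a pool, so p-values measure the spread between these libraries only.

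Haemoglobin carries oxygen in red cells and is built from α- and β-globin chains, each holding a heme group. Alas2 is the erythroid form of the enzyme that starts heme synthesis. Reticulocytes, the youngest red cells in blood, have lost their nucleus but still hold globin mRNA, so whole tissue that contains blood usually yields globin reads even where no cell of the tissue itself makes haemoglobin; Hbb-bs and Hbb-bt are the β-globin pair of the haplotype that C57BL/6 mice carry.

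The 4 globin genes form near-identical pairs, which bears on every value below. In the GRCm38 mouse genome with GENCODE M21 annotation, Hba-a1 lies at chr11:32283511-32284465 and Hba-a2 at chr11:32296489-32297298, both on the forward strand. Hbb-bs lies at chr7:103826534-103828096 and Hbb-bt at chr7:103812524-103813996, both on the reverse strand. Alas2 lies at chrX:150547375-150570638 on the forward strand. Each globin gene has 3 exons and Alas2 has 11. The coding sequences of Hba-a1 and Hba-a2 are identical at 425 of 426 bases and differ by C381T, and those of Hbb-bs and Hbb-bt are identical at 440 of 441 bases and differ by C417T, counted from 1 at the first base of the start codon. The stretches below are coding sequence in GRCm38, shown because they hold the single base at which each pair differs, in capitals. They run over chr11:32284319-32284367 and chr11:32297136-32297184 on the forward strand and over chr7:103826668-103826716 and chr7:103812659-103812707 on the reverse strand.
Hba-a1: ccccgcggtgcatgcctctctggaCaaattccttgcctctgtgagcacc
Hba-a2: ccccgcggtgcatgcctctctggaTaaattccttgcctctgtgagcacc
Hbb-bs: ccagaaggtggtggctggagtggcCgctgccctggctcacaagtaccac
Hbb-bt: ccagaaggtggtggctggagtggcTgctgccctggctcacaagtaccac
A read that covers none of these differences, nor the untranslated ends, fits both genes of a pair. Of all 150-base windows of the Hba-a1 transcript, 48.4% were also found in Hba-a2, and 65.7% of the windows of Hba-a2 were found in Hba-a1. For the β-globins the shares were 58.7% for Hbb-bs and 50.7% for Hbb-bt. No 150-base window was shared between Hba-a1 and Hbb-bs, whose coding sequences are identical at 55.1% of aligned bases. The split of counts within a pair is therefore uncertain. The summed counts of a pair do not depend on it, but the summed level per length does, since the genes of a pair differ in the length the table gives them.

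The α-globin promoters are near-identical, whereas those of the β-globins differ. RefSeq promoter entries, of 300 bases each around the annotated start in GRCm38.p6, matched all 5 genes. Those of Hba-a1 and Hba-a2 share an unbroken run of 297 bases, and the longest run shared by those of Hbb-bs and Hbb-bt is 14 bases. The last 120 bases before the RefSeq start are shown to set the promoters of the 4 globin genes beside that of Alas2, since the pairs' levels are compared below. They are at chr11:32283552-32283671 for Hba-a1, chr7:103827929-103828048 on the reverse strand for Hbb-bs, chr7:103813924-103814043 on the reverse strand for Hbb-bt and chrX:150547297-150547416 for Alas2. Capitals mark the CACCC box (reverse complement GGGTG), the CCAAT box (reverse complement ATTGG) and the TATA-like motif ATATAA (reverse complement TTATAT) on either strand.
Hba-a1: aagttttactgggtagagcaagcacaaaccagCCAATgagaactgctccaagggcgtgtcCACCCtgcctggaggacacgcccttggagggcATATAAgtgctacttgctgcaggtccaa
Hbb-bs: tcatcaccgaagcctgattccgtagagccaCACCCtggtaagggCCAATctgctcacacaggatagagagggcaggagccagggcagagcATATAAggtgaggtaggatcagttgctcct
Hbb-bt: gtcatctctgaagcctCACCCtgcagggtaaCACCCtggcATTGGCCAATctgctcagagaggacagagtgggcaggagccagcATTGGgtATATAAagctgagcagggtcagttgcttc
Alas2: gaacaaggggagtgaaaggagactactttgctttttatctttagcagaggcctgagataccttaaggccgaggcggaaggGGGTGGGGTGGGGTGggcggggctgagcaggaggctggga
The Hba-a2 window holds the same letters as that of Hba-a1, displaced by 3 bases. Hba-a1, Hba-a2 and Hbb-bs held 1 match each of the CACCC box, the CCAAT box and the TATA-like motif. Hbb-bt held 2 matches of the CACCC box, 3 of the CCAAT box, with a pair on opposite strands side by side, and 1 of the TATA-like motif. Alas2 held 3 matches of the CACCC box, side by side on the reverse strand, and none of the other motifs. Among the same 120-base windows of 32851 RefSeq promoters, 31.7% held the CACCC box, 21.3% the CCAAT box and 4.47% the TATA-like motif. The letters GATAAG, in 3.01% of the windows, were in none of the 5. No other spelling of a GATA site was searched, so sites with other letters are not excluded. The Alas2 window holds ttatct, the reverse complement of AGATAA. The GENCODE transcript starts lie before these RefSeq starts, by 161 bases for Hba-a1, 3 for Hba-a2, 168 for Hbb-bs, 73 for Hbb-bt and 42 for Alas2. In that annotation the whole printed windows of Hba-a1 and Hbb-bs are transcribed, and parts of those of Hbb-bt and Alas2.

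The deposited counts summed to between 16025695 and 20163448 in AAV_sh libraries and between 20450312 and 21402898 in AAV_NC libraries. The entry matched by name to the targeted RNA, Mm2pr, had 0, 0, 2 and 20.6 counts in AAV_sh1 to AAV_sh4, against 1, 1, 17.0 and 7.34 counts in AAV_NC1 to AAV_NC4. The groups overlapped at a level too low to check the labels. All 10 photoreceptor markers were measured in every library. AAV_sh1 stood apart from the other libraries in several genes given below, and AAV_sh3 stood apart in lens crystallins. The fold changes, correlations and list medians that move most with AAV_sh1 are also given without it.

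All 5 genes were detected in every library, with the β-globin Hbb-bs highest, and AAV_sh1 held the most globin RNA. Levels are given as transcripts per 1000000 transcripts (TPM), computed from the deposited counts and gene lengths, and can be compared between genes. Hbb-bs, the more abundant β-globin, had 305, 199, 204 and 200.5 TPM in AAV_sh1 to AAV_sh4, against 149, 218, 160 and 205 TPM in AAV_NC1 to AAV_NC4. AAV_sh1 was above all other libraries, the other AAV_sh libraries lay close together within the AAV_NC range, and AAV_NC1 and AAV_NC3 were lowest. Hba-a2, an adult α-globin gene, had 186, 133, 102 and 109.6 TPM in AAV_sh1 to AAV_sh4, against 90.7, 140.4, 93.3 and 108 TPM in AAV_NC1 to AAV_NC4. AAV_sh1 was again highest, AAV_NC1 and AAV_NC3 lowest, and the groups overlapped.

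Hba-a1, the other α-globin gene, had 117, 93.3, 80.1 and 88.3 TPM in AAV_sh1 to AAV_sh4, against 54.4, 78.4, 48.9 and 89.4 TPM in AAV_NC1 to AAV_NC4. AAV_NC4 lay among the AAV_sh libraries, and the other AAV_NC libraries lay below all of them. Hbb-bt, the less abundant β-globin gene, had 29.9, 30.2, 19.2 and 20.5 TPM in AAV_sh1 to AAV_sh4, against 18.1, 22.5, 12.9 and 24.5 TPM in AAV_NC1 to AAV_NC4. AAV_sh1 and AAV_sh2 were above every AAV_NC library, and AAV_sh3 and AAV_sh4 were within the AAV_NC range. Alas2 had 2.66, 1.84, 3.32 and 1.53 TPM in AAV_sh1 to AAV_sh4, against 2.02, 2.16, 1.48 and 1.93 TPM in AAV_NC1 to AAV_NC4. Its highest library was AAV_sh3, not AAV_sh1, and the groups overlapped.

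**Figure D1:**
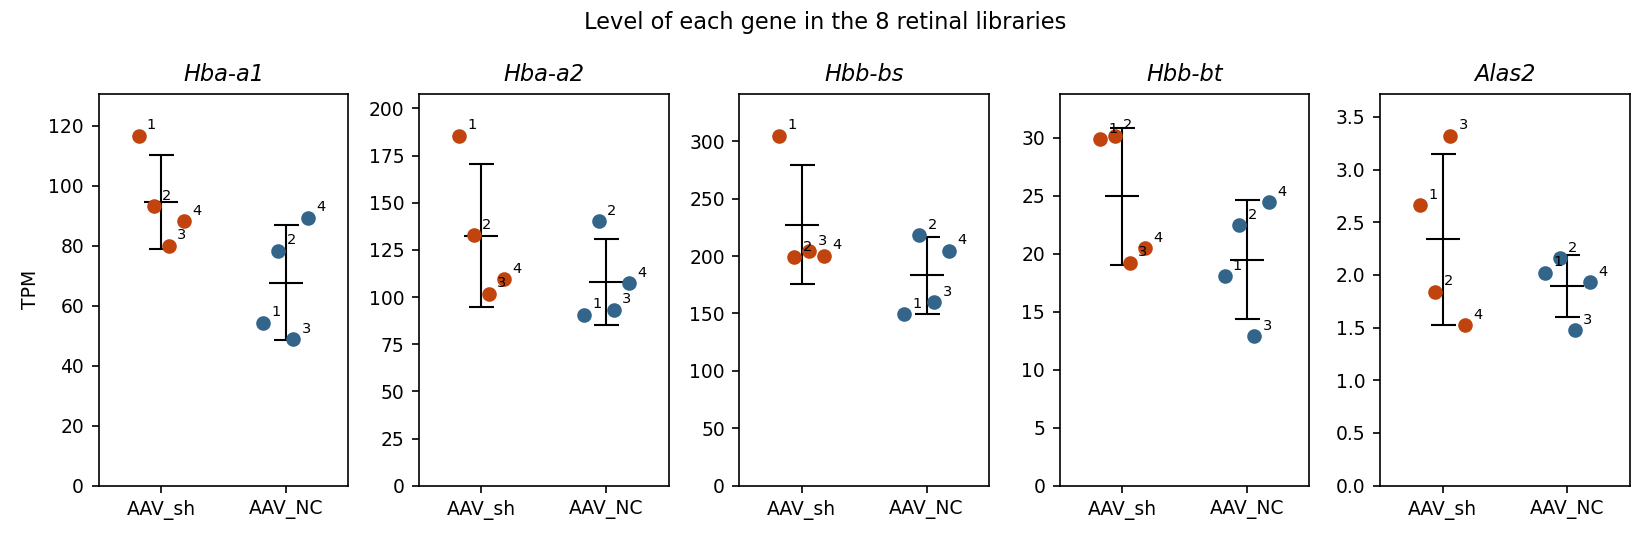
Level in TPM (linear axis from 0) of each gene in the 4 AAV_sh and 4 AAV_NC libraries; points are libraries with their replicate number, and bars show the mean and 1 SD. AAV_sh1 is highest for Hba-a1, Hba-a2 and Hbb-bs, with 305 TPM of Hbb-bs, and the groups overlap for all 5 genes.

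In TPM, with the counts divided as deposited and the lengths of the table, the order Hbb-bs, Hba-a2, Hba-a1, Hbb-bt, Alas2 held within each of the 8 libraries. In counts, Hba-a1 exceeded Hba-a2 in AAV_sh4 and AAV_NC4, and the order of these neighbours rests on the uncertain split. Over all libraries the means were 205, 120.2, 81.2, 22.2 and 2.12 TPM in that order. The ranges over libraries of the neighbours Hbb-bs and Hba-a2 overlapped, as did those of Hba-a2 and Hba-a1, whereas Hbb-bt lay below every Hba-a1 value and Alas2 below every Hbb-bt value. By mean TPM, Hbb-bs lay above 95.5% of the 16118 tested genes, Hba-a2 above 91.1%, Hba-a1 above 85.8%, Hbb-bt above 54.4% and Alas2 above 11.3%. A gene was tested when it reached 1 TPM in at least 4 of the 8 libraries, and all 5 passed that filter.

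The levels of α- and β-globin transcripts followed each other from library to library. The sum of Hba-a1 and Hba-a2 was 182 to 302 TPM in AAV_sh libraries and 142 to 219 TPM in AAV_NC libraries. The sum of Hbb-bs and Hbb-bt was 221 to 335 TPM in AAV_sh libraries and 168 to 241 TPM in AAV_NC libraries. As the counts were divided, β exceeded α in all 8. The ratio of α to β TPM was 0.8998 ± 0.0700 in AAV_sh and 0.864 ± 0.0357 in AAV_NC (SD, n = 4 each), with ranges of 0.815 to 0.986 and 0.822 to 0.909. Without AAV_sh1 it was 0.899 ± 0.0857 in AAV_sh (SD, n = 3). With each pair's counts placed wholly on its longer α and shorter β gene the ratio was 0.704 to 0.852 over the 8 libraries, and with the reverse it was 0.994 to 1.204, above 1 in 7 of them. Both divisions are outer limits, and windows found in only 1 gene of a pair were not used to narrow them. Which of α and β was higher was therefore not settled here. As deposited, the α to β ratio varied less between libraries than the levels themselves, whose highest value was 2.04 to 2.39 times the lowest for the 5 genes.

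**Figure D2:**
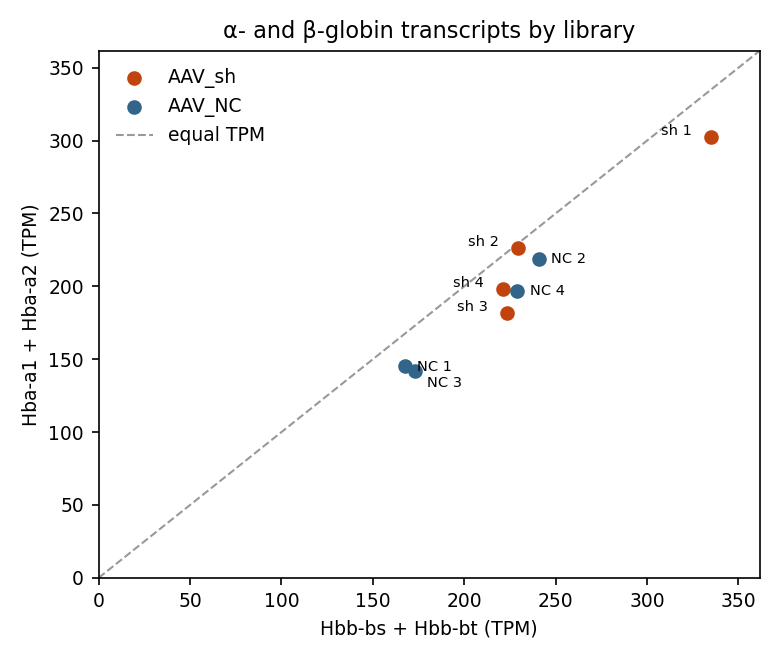
Summed α-globin TPM (Hba-a1 and Hba-a2, vertical axis) against summed β-globin TPM (Hbb-bs and Hbb-bt, horizontal axis); each point is a library and the dashed line marks equal TPM. With the counts divided as deposited, all 8 points lie below the line, and AAV_sh1 is farthest from the origin with 302 TPM of α and 335 TPM of β.

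The 4 globin genes together took 0.0166% of all counts in AAV_sh1, with a 95% Wilson interval of 0.0161% to 0.0172%. In AAV_NC1, the lowest library, they took 0.00779%, with an interval of 0.00742% to 0.00819%. These intervals cover counting error only. The summed globin level was 637, 456, 405 and 419 TPM in AAV_sh1 to AAV_sh4, against 313, 459, 315 and 426 TPM in AAV_NC1 to AAV_NC4. AAV_sh1 was highest, AAV_NC1 and AAV_NC3 were lowest and close to each other, and AAV_NC2 and AAV_NC4 lay among the other AAV_sh libraries or just above them. Without AAV_sh1 the AAV_sh libraries averaged 427 ± 26.0 TPM (SD, n = 3).

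Within the pairs, where the split of shared reads is uncertain, Hbb-bt held 9.54% to 14.5% of β-globin counts in AAV_sh libraries and 8.26% to 11.9% in AAV_NC libraries. Hba-a1 held 44.2% to 50.4% of α-globin counts in AAV_sh libraries and 39.8% to 51.2% in AAV_NC libraries. Alas2 stood at 3.65 to 8.20 TPM per 1000 TPM of globin in AAV_sh libraries and at 4.53 to 6.47 in AAV_NC libraries. AAV_sh3 held the highest Alas2 share with the lowest globin level of the AAV_sh group, and all 3 shares overlapped between the groups.

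The globin genes varied between libraries by more than most genes did. The SD of log2 counts per 1000000 counts (CPM) over the 8 libraries was larger for Hba-a1 than for 91.3% of tested genes, for Hbb-bt than for 90.6%, for Alas2 than for 87.9%, for Hba-a2 than for 87.7% and for Hbb-bs than for 84.9%. Among the 10108 genes with 10 to 500 TPM, where low counts inflate the spread less, 98.1% had a smaller SD than Hbb-bs, 98.6% than Hba-a2, 99.0% than Hbb-bt and 99.1% than Hba-a1. The coefficient of variation of Hbb-bs CPM was 24.8%, against 3.13% from counting alone. For Alas2, with 25 to 43 counts a library, it was 28.4%, against 17.3% from counting. Counting error is therefore a small part of the spread of Hbb-bs and a larger part, though not all, of that of Alas2.

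**Figure D3:**
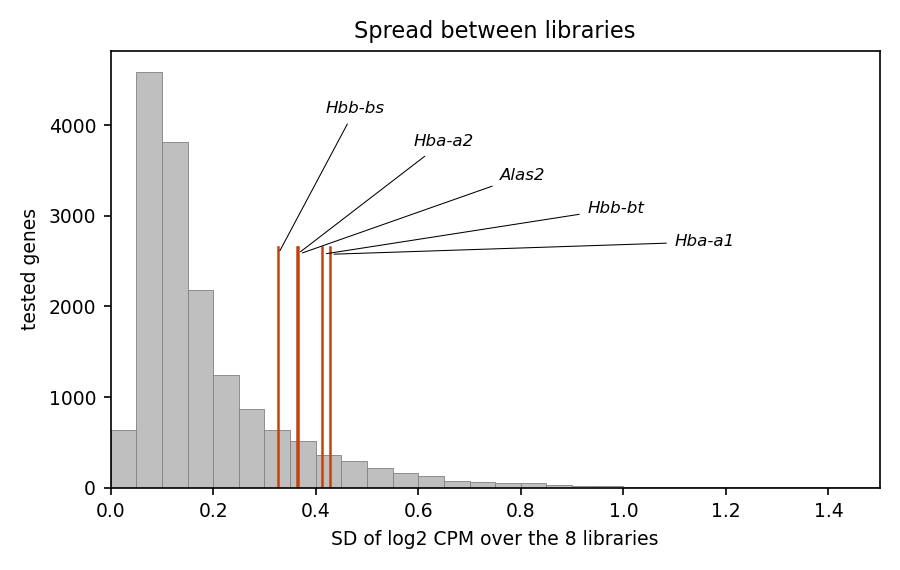
Number of tested genes (vertical axis) by the SD of their log2 CPM over the 8 libraries (horizontal axis, bins of 0.05 up to 1.5), with the 5 genes marked by lines. The median of all 16118 tested genes is 0.135, and the 5 genes lie well to its right.

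The levels of the globin genes moved together across libraries, while no pair with Alas2 passed the test. For the 10 pairs of the 5 genes, Pearson's r and Spearman's rho of log2 CPM were computed over the 8 libraries with two-sided exact permutation p-values, adjusted over the 10 pairs. Hbb-bs and Hba-a2 had r = 0.92 (exact permutation, adjusted p = 0.0109) and rho = 0.83 (adjusted p = 0.0513), and r was 0.65 without the 2 libraries farthest from the median of Hbb-bs, AAV_sh1 and AAV_NC1. Hbb-bt and Hba-a1 had r = 0.90 (exact permutation, adjusted p = 0.0124) and rho = 0.90 (adjusted p = 0.0228), and r was 0.73 without AAV_NC3 and AAV_sh1. Hbb-bs and Hba-a1 had r = 0.90 (exact permutation, adjusted p = 0.0149) and rho = 0.76 (adjusted p = 0.0735), and r was 0.87 without AAV_sh1 and AAV_NC1. Each of these pairs joins an α- with a β-globin gene.

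Over the 6 globin pairs r was 0.75 to 0.92, and 5 of the 6 passed by Pearson's r. Of all 10 pairs, 2 passed by Spearman's rho. The 4 pairs with Alas2 had r of 0.34 to 0.49, and none passed (exact permutation, adjusted p = 0.328 to 0.418). Without AAV_sh3 they had r of 0.56 to 0.75 and none passed (exact permutation, adjusted p = 0.0757 to 0.193), beside 0.76 to 0.95 for the globin pairs. Whether the pairs with Alas2 differ from the globin pairs was not tested. The correlations rest in part on AAV_sh1. Without it the 6 globin pairs had r of 0.67 to 0.89 over 7 libraries, and 1 pair passed, Hbb-bt and Hba-a1 (exact permutation, adjusted p = 0.0437). Deviations from the group means, which take out the difference between AAV_sh and AAV_NC, were also compared. On these, 3 pairs passed: Hbb-bs with Hba-a1, Hbb-bs with Hba-a2 and Hbb-bt with Hba-a1. Their r was 0.87, 0.90 and 0.89 (permutation over all 8 libraries, adjusted p = 0.0253 for each). Deviations were permuted across groups and not within them, so these p-values are approximate.

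None of the 5 genes differed between AAV_sh and AAV_NC retinas past the threshold, although all had a higher mean in AAV_sh. The comparison asks whether the retinas with the knockdown virus held more or less globin RNA than those with the control virus. It used edgeR's quasi-likelihood test across all 16118 tested genes with Benjamini-Hochberg adjustment, and a gene was called at an adjusted p under 0.05. Of the 5 genes, 0 were called by edgeR, against 0.062% of all tested genes, of which 0.0434% were higher and 0.0186% lower in AAV_sh, and 0 were called by DESeq2, which called 0.279% of its tested genes. At an unadjusted edgeR p under 0.05 there was 1, Hba-a1, against 5.27% of tested genes. In a bulk library, fewer red cells and less RNA per red cell cannot be told apart.

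Hba-a1 averaged 26.8 ± 5.34 CPM in AAV_sh and 19.2 ± 5.75 CPM in AAV_NC (SD, n = 4 each). Its log2 fold change, AAV_sh over AAV_NC, was 0.48 (SE 0.18, edgeR adjusted p = 0.834), with a 95% interval of 0.09 to 0.87. The interval left out 0, but the difference did not pass once adjusted over all tested genes. With no expression filter, where 29582 genes were tested, the same log2 fold change of 0.48 had an adjusted edgeR p of 0.0496 and was called.

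Hbb-bs averaged 57.9 ± 15.2 CPM in AAV_sh and 46.6 ± 8.58 CPM in AAV_NC (SD, n = 4 each). The log2 fold change of this gene came to 0.31 (SE 0.16, edgeR adjusted p = 0.934), with an interval of -0.02 to 0.65. Hba-a2 averaged 29.9 ± 9.56 CPM in AAV_sh and 24.2 ± 4.77 CPM in AAV_NC, with a log2 fold change of 0.30 (SE 0.19, edgeR adjusted p = 0.971) and an interval of -0.09 to 0.70. In all 5 genes, the difference between the group means was smaller than the sum of the groups' SDs. Hbb-bt averaged 7.13 ± 1.84 CPM in AAV_sh and 5.55 ± 1.53 CPM in AAV_NC, with a log2 fold change of 0.36 (SE 0.22, edgeR adjusted p = 0.964) and an interval of -0.10 to 0.83. Alas2 averaged 1.92 ± 0.658 CPM in AAV_sh and 1.56 ± 0.227 CPM in AAV_NC, with a log2 fold change of 0.28 (SE 0.27, edgeR adjusted p = 0.989) and the widest interval of the 5, -0.30 to 0.87. These 4 intervals include 0, with lower ends of -0.30 to -0.02 and upper ends of 0.65 to 0.87. The data therefore leave room for no difference and for a lower or a higher level in AAV_sh.

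The summed counts of the pairs do not depend on how shared reads were divided. Hba-a1 and Hba-a2 together averaged 56.7 ± 14.9 CPM in AAV_sh and 43.4 ± 9.57 CPM in AAV_NC (SD, n = 4 each), a log2 fold change of 0.39 (SE 0.17, edgeR adjusted p = 0.917). Hbb-bs and Hbb-bt together averaged 65.1 ± 16.4 CPM in AAV_sh and 52.2 ± 9.87 CPM in AAV_NC, a log2 fold change of 0.32 (SE 0.15, edgeR adjusted p = 0.928). Neither sum was called. Without AAV_sh1 the log2 fold changes of the sums were 0.20 for α (SE 0.13, edgeR adjusted p = 0.749) and 0.13 for β (SE 0.11, edgeR adjusted p = 0.802).

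The size of these differences depended on single libraries. The median log2 fold change of the 5 genes was 0.31, against 0.00 over all tested genes, and 5 of 5 were positive, against 51.8% of tested genes. In 4 of the 5, AAV_sh1 was the highest of the 8 libraries by CPM, against 19.7% of tested genes, and in 3 of the 5 AAV_NC3 was the lowest, against 10.2%. The globin genes moved together across libraries and share reads within pairs. The 5 genes are therefore not independent observations, and these counts carry no test. The groups overlapped for all 5, whereas they did not overlap for 3.31% of tested genes, and in 1.6% every AAV_sh library was higher. Without AAV_sh1 the log2 fold changes were 0.34 for Hba-a1, 0.24 for Hbb-bt, 0.19 for Alas2, 0.11 for Hbb-bs and 0.07 for Hba-a2. Without AAV_NC1, the lowest library for Hbb-bs and Hba-a2, the log2 fold change of Hbb-bs was 0.22 and that of Hba-a2 0.23, and without AAV_NC3 they were 0.26 and 0.24. Without AAV_sh3, the highest library for Alas2, the log2 fold change of Alas2 was 0.09. AAV_sh1 and AAV_NC3 were also left out together. They were picked for their high and low values, so a smaller difference is partly built into that choice. The log2 fold changes were then 0.21 for Hba-a1, 0.09 for Hbb-bt, 0.09 for Alas2, 0.05 for Hbb-bs and 0.01 for Hba-a2. Without AAV_sh1, Hbb-bs in AAV_sh was 50.3 ± 0.141 CPM (SD, n = 3).

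**Figure D4:**
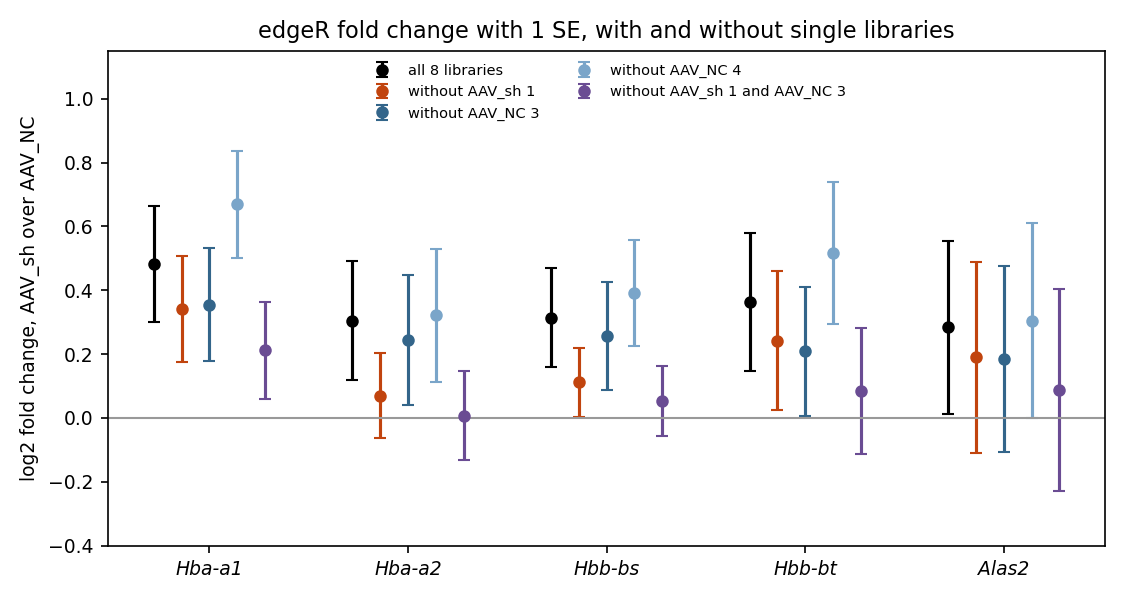
Log2 fold change of each gene, AAV_sh over AAV_NC, from edgeR (vertical axis, bars are 1 SE), with all 8 libraries and with single libraries left out. The change of Hba-a1 runs from 0.21 without AAV_sh1 and AAV_NC3 to 0.67 without AAV_NC4, and that of Hba-a2 falls to 0.01 without AAV_sh1 and AAV_NC3.

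Most genes that define developing red cells were at or near 0 beside the globins. Slc4a1, the band 3 anion exchanger, had 0 to 7 counts in AAV_sh libraries and 0 to 3 in AAV_NC libraries. Rhag, a Rhesus complex protein, and Gfi1b, an erythroid repressor, had 0 counts in all 8 libraries. For a single library, 0 counts give a 95% upper limit of about 3 on the expected count. Gata1 and Klf1, the transcription factors that switch on globin genes, had 0 to 4 and 0 to 3 counts over all libraries. Epb42, of the membrane skeleton, had 8 counts in AAV_sh1, 0 in each other AAV_sh library and 1 to 4 in AAV_NC libraries. Others of these lists were low but present in every library: Tal1, a transcription factor of blood and vessel cells, had 16 to 36 counts over all libraries, Ermap, a membrane protein, 10 to 27 and Epor, the erythropoietin receptor, 5 to 12. Hbb-bs had 814 to 1502 counts in AAV_sh libraries and 768 to 1122 in AAV_NC libraries.

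The embryonic globin genes were also at or near 0. Hbb-bh1 and Hba-x, expressed in the yolk sac, had 0 counts in all 8 libraries, as did Hbb-bh0, Hbb-bh2 and Hbq1b. Hbb-y had 2 counts in AAV_NC2 and 0 elsewhere, and Hbq1a had 1 count each in AAV_sh3 and AAV_sh4. The deposited table lists 11 other globin genes. Of these, 2 passed the expression filter, and both are globins of non-erythroid cells. Cygb, cytoglobin, averaged 94.9 ± 4.12 TPM in AAV_sh and 103 ± 0.628 TPM in AAV_NC (SD, n = 4 each), with a log2 fold change of -0.12 (edgeR adjusted p = 0.903). Ngb, neuroglobin, averaged 2.71 ± 0.695 TPM in AAV_sh and 2.56 ± 0.847 TPM in AAV_NC, with a log2 fold change of 0.07 (edgeR adjusted p = 0.997). Neither was called, and Cygb levels of the groups did not overlap.

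**Figure D5:**
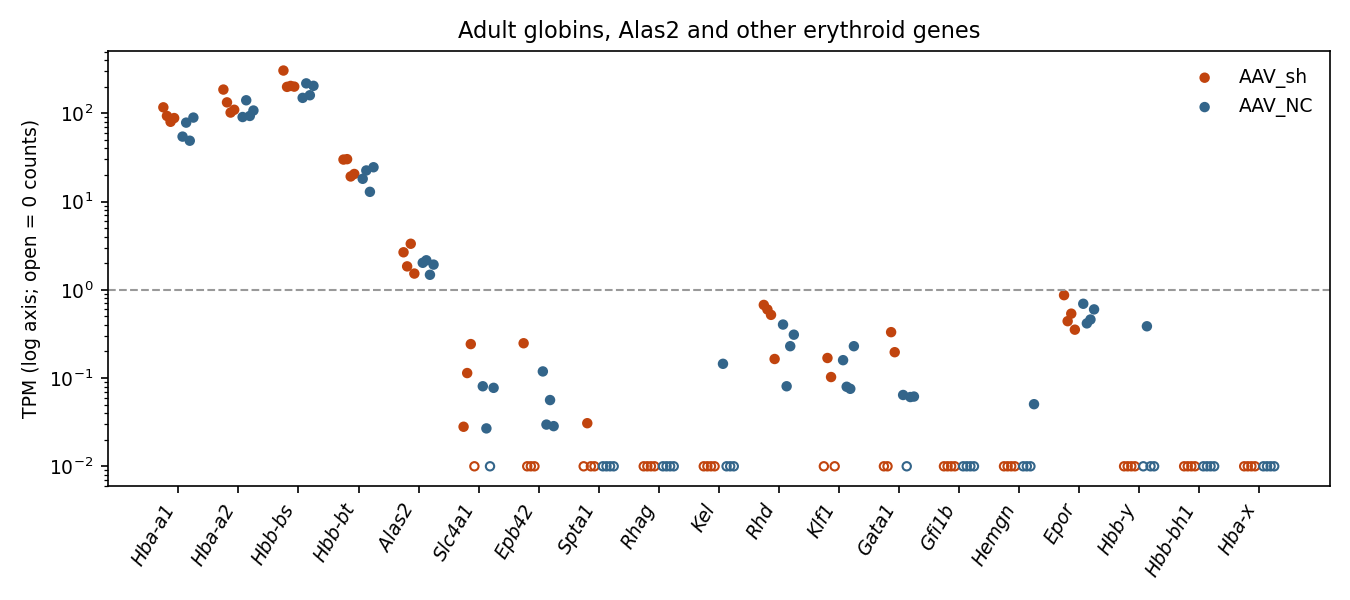
TPM on a log axis of the 5 genes and of other erythroid and embryonic globin genes in the 4 AAV_sh and 4 AAV_NC libraries; open points at the bottom are libraries with 0 counts, and the dashed line is 1 TPM. The 5 genes lie above the line in all 8 libraries, and Rhag, Gfi1b, Hbb-bh1 and Hba-x have 0 counts throughout.

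The other genes of the erythroid programme had log2 fold changes on both sides of 0. Of 16 red cell membrane genes 8 were tested and 0 called, with 2 positive and 6 negative log2 fold changes and a median of -0.04. They included Epb41, protein 4.1, at a mean of 602 TPM and a log2 fold change of -0.04, and Ank1, ankyrin, at 16.5 TPM and -0.21; several of the list are also expressed in neurons. The deposited table lists 10 erythroid regulators, of which 3 were tested (Lmo2, Zfpm1 and Bcl11a) and 0 called, with a median of -0.02. Bcl11a, a repressor of embryonic globin, had a log2 fold change of 0.24 (edgeR adjusted p = 0.936). Of 17 genes known from reticulocytes 13 were tested and 0 called, 9 of them positive and 4 negative, at a median of 0.04, which was -0.02 without AAV_sh1. The largest by TPM were Car2, carbonic anhydrase, with a log2 fold change of 0.02, Prdx2, a peroxidase, with 0.01, and Bnip3l, a receptor for clearing mitochondria, with 0.04.

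All 16 genes of heme synthesis and its transport were tested, and 0 were called. Of these, 8 had positive and 8 negative log2 fold changes, with a median of -0.01. Clpx, a mitochondrial protease component, had a log2 fold change of 0.03, Urod, an enzyme of the pathway, 0.01 and Ppox, a later one, 0.10, beside 0.28 for Alas2. Slc25a37, also on the reticulocyte list and singled out after its values were seen, had 0.27 (edgeR adjusted p = 0.919). It had 56.0 TPM in AAV_sh1, against 37.6 to 39.9 TPM in the other AAV_sh libraries and 31.0 to 39.1 TPM in AAV_NC libraries. Of 19 genes of heme and iron handling 15 were tested and 0 called, with a median of 0.01, which was -0.06 without AAV_sh1. Their summed level was 2127 to 2919 TPM in AAV_sh libraries and 2209 to 2398 TPM in AAV_NC libraries. AAV_sh1 set the upper end, and the other AAV_sh libraries reached 2284 TPM. In AAV_sh1 Trf, transferrin, had 320.2 TPM, Ftl1, ferritin light chain, 801 TPM and Fth1, ferritin heavy chain, 1303 TPM. Hmox1, heme oxygenase, which was singled out after its values were seen, had 58.6 TPM in AAV_sh1, against 3.73 to 7.83 TPM in the other AAV_sh libraries and 5.76 to 7.56 TPM in AAV_NC libraries.

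Markers of other blood cells were sparse, and AAV_sh1 stood apart in a few of them. Of 17 neutrophil and monocyte markers 3 were tested and 0 called, with a median log2 fold change of 0.03, and 3 were at 0 in all libraries. With the filter at a mean of 5 TPM, which keeps fewer of them, the median was 1.58. Their summed level was 27.0 to 339 TPM in AAV_sh libraries and 25.8 to 33.2 TPM in AAV_NC libraries. Lcn2, lipocalin 2, which neutrophils and stressed glia express, made up most of it in AAV_sh1 with 320 TPM, against 5.48 to 20.9 TPM in the other AAV_sh libraries and 6.98 to 11.2 TPM in AAV_NC libraries. Without Lcn2 the list summed to 18.8 TPM in AAV_sh1, against 19.9 to 21.5 TPM in the other AAV_sh libraries and 18.8 to 22.0 TPM in AAV_NC libraries. Mmp9, a secreted protease, made up most of that remainder in AAV_sh1 at 12.1 TPM, and was lowest there. Csf3r, a growth factor receptor, was at 0.968 TPM in AAV_sh1, within the range of the AAV_NC libraries. Below the expression filter, S100a8 and S100a9 were highest of the 8 libraries in AAV_sh1, at 1.84 and 2.46 TPM. They had 7 and 10 counts there, against 0 to 3 and 2 to 6 counts in the other libraries. Plac8 had 1 count in AAV_sh1 and 1 in AAV_sh2, at 0.173 and 0.175 TPM, against 2 to 8 counts in the other libraries. Of 13 platelet markers 3 were tested and 0 called, with a median of 0.21, which was -0.02 without AAV_sh1. Pf4, platelet factor 4, was at 7.59 TPM in AAV_sh1, whereas Gp1ba, a platelet adhesion receptor, was highest of its group in AAV_sh4 at 4.36 TPM and Gp1bb, its partner, in AAV_sh4 at 3.27 TPM. Of 14 lymphocyte markers 3 were tested and 0 called, with a median of 0.05, which was -0.09 without AAV_sh1, and their sum of 7.82 TPM in AAV_sh1 lay within the AAV_NC range of 6.35 to 8.37 TPM. The part of blood cells or of the state of AAV_sh1 in the globin levels was not tested.

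Markers of vessels and neighbouring tissue gave other orders of libraries than the globins, though the summed pigment epithelium and choroid markers were also highest in AAV_sh1. All 20 endothelial markers were tested and 0 called, 18 with negative log2 fold changes and a median of -0.21, and their summed level was 398 to 411 TPM in AAV_sh libraries and 429 to 497 TPM in AAV_NC libraries. Cldn5, of tight junctions, had a log2 fold change of -0.23 (edgeR adjusted p = 0.647), Pecam1, an adhesion protein, -0.06 and Kdr, a VEGF receptor, 0.02. The globin sum was higher in AAV_sh1 than in any AAV_NC library while the endothelial sum there was the lowest of the 8. Of 15 lens fibre markers 12 were tested and 5 called, all higher in AAV_sh, with a median of 5.83. That median depends on the pseudocount, and was 2.82 with limma on log2(TPM + 1) and 1.31 on log2(TPM + 5). Their sum was 46.3 to 486 TPM in AAV_sh libraries and 11.9 to 16.2 TPM in AAV_NC libraries. The highest was AAV_sh3, which had the lowest globin sum of its group. Cryaa, a crystallin, had 9.65 to 108 TPM in AAV_sh libraries and 0.122 to 0.898 TPM in AAV_NC libraries, and Crygb, Crygc and Crygd were also called. Photoreceptor markers summed to 32241 to 34786 TPM in AAV_sh libraries and 34302 to 36115 TPM in AAV_NC libraries, with 0 of 10 called and a median of -0.06. Gnat1, rod transducin, had a log2 fold change of -0.14 and Sag, arrestin, of -0.10. Of 12 pigment epithelium and choroid markers 11 were tested and 0 called, 6 positive and 5 negative, with a median of 0.10. Their sum was 951 TPM in AAV_sh1, the highest of the 8 libraries. It was 819 to 881 TPM in the other AAV_sh libraries and 853 to 933 TPM in AAV_NC libraries. Rlbp1 made up most of this sum in AAV_sh1, at 526 TPM, and was at 534 TPM in AAV_NC3. Of the 11 tested markers, 3 were highest in AAV_sh1 by CPM, against 19.7% of tested genes. The part of any of these tissues in the globin levels was not tested.

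None of the 10 genes whose levels were most like the globins was on the erythroid lists. Of 16113 tested genes that are not among the 5, 9 had a Pearson r above 0.9 with the summed level of the 4 globins, on log2(TPM + 1) over the 8 libraries. These values describe libraries that share depth and AAV_sh1, and carry no test. The closest was Htra1, a secreted serine protease, with r = 0.95, and it had 163, 140.1, 136 and 134 TPM in AAV_sh1 to AAV_sh4, against 126, 141, 129 and 144 TPM in AAV_NC1 to AAV_NC4. It was followed by Ttc23 with 0.94, Pgap3, which trims lipid anchors of membrane proteins, with 0.92, Olfml3, a secreted protein, with 0.92, and Gipr, a receptor of an incretin hormone, with 0.91. The next were Fam122a with 0.91, Rnaset2a, a ribonuclease, with 0.91, Gm29257 with 0.90, Hagh, a glyoxalase enzyme, with 0.90, and Tedc2 with 0.90. Without AAV_sh1 and AAV_NC1, the libraries farthest from the median, r was 0.93 for Pgap3, Rnaset2a and Tedc2 and 0.64 to 0.87 for the other 7 of these 10 genes.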

How the data were processed

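Per the labels' protocols, retinal RNA was read from both ends, 150 bases each, by a NovaSeq X Plus instrument. The submitters' processing notes name Bowtie 0.12.2 and mm9 with no role, and the sources used here do not give the counting tool or annotation. The authors deposited 1 table of estimated counts for 57010 genes with gene lengths; 90.6% to 91.9% of the values in a library were whole numbers. The lengths of the 5 genes equal those of single GENCODE M21 transcripts. The 2 pooled columns were not used, and no other column of per-sample values was present.

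Counts were rounded, scaled by TMM and tested with edgeR 4.0.16 (R 4.3.3) over genes with at least 1 TPM in at least 4 libraries, with an adjusted p under 0.05 over all tested genes as the threshold. TPM was computed from counts and lengths. DESeq2 1.42.0 and limma 3.58.1 were alternatives, with other filters, pseudocounts, a replicate block and each library left out. The edgeR script was tested on simulated data. SciPy 1.17.1 gave exact permutation tests.

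The 5 genes and the marker lists were chosen with earlier results of these data known. Named besides the members were genes of the globin, regulator and membrane lists and the 10 genes most like the globins. Of the other lists, up to 4 called or else the 3 highest genes were named. The lymphocyte list is given as totals only, and of the pigment epithelium list only Rlbp1 is named. Hmox1, Slc25a37, S100a8, S100a9 and Plac8 were named outside this rule, after their values were seen. Hbb-b1, Hbb-b2 and Ahsp were not matched by name in the table. RefSeq promoters and GENCODE M21 transcripts gave the sequences.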

Additional observations from a re-analysis of the deposited data

Results flagged for a closer look

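In groups of 4 libraries, a highest or lowest library was singled out where its gap to the nearest other library exceeded Dixon's 95% critical share of the group's range. Of 120 groups checked, 16 values met this, and chance flags about 1 in 20 groups. The groups include genes chosen because they follow the globin sum, in which AAV_sh1 is highest, so the number of flags cannot be read against that rate. Among the members, Hbb-bs in AAV_sh1 was at 80.8 CPM, against 50.2 to 50.5 CPM in the other AAV_sh libraries. Hbb-bt took 14.5% of β-globin counts in AAV_sh2, against 9.54% to 10.3% in the others of its group. Alas2 per 1000 TPM of globin was 8.20 in AAV_sh3, against 3.65 to 4.17 in the others of its group, and 6.47 in AAV_NC1, against 4.53 to 4.70 in the other AAV_NC libraries.

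AAV_sh1 was also highest of its group for Lcn2 at 123 CPM, against 1.98 to 7.66 CPM, for Trf at 315 CPM, against 131 to 157 CPM, for Pf4 at 1.88 CPM, against 0.248 to 0.372 CPM, for Gipr at 2.64 CPM, against 0.992 to 1.24 CPM, and for Fam122a at 10.6 CPM, against 8.33 to 8.70 CPM. In AAV_NC1, Trf was lowest at 144 CPM, against 181 to 187 CPM, and Lmo2 highest at 12.2 CPM, against 9.80 to 10.003 CPM. Gp1ba was highest in AAV_sh4 at 4.71 CPM, against 3.28 to 3.44 CPM, and in AAV_NC2 at 4.66 CPM, against 2.60 to 2.81 CPM. In AAV_sh3, Pecam1 was lowest at 39.2 CPM, against 42.5 to 42.8 CPM, and Crygc highest at 8.93 CPM, against 0.729 to 1.98 CPM. Crygc was at 0.0481 CPM in AAV_NC2 and at 0 in the other AAV_NC libraries.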

How the results depend on the processing

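The log2 fold changes of the 5 genes stayed positive under all alternatives run: 0.21 to 0.67 for Hba-a1, 0.05 to 0.39 for Hbb-bs, 0.09 to 0.52 for Hbb-bt, 0.01 to 0.44 for Hba-a2 and 0.08 to 0.45 for Alas2, which a mean of at least 5 TPM leaves untested. The 5 genes gave 1 call with no expression filter (Hba-a1) and 0 elsewhere. Over all genes edgeR called 10. DESeq2 called 45, no filter 157 of 29582, a mean of at least 5 TPM 1 of 12310, and limma on log2(TPM + 0.1), log2(TPM + 1) and log2(TPM + 5) 9, 0 and 0; the cause was not tested. Leaving out single libraries gave 0 to 58 calls: 0 without AAV_NC1 or AAV_NC2, 1 without AAV_NC4 and 58 without AAV_NC3. Without AAV_sh1 and AAV_NC3 together, chosen after seeing the data, there were 69. The marker lists held 5 calls, all lens genes, and 10 with DESeq2, 15 with no filter, 0 with a mean of at least 5 TPM, 6, 0 and 0 with limma at these pseudocounts, 0 to 6 with single libraries left out and 8 with both left out.

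Correlated pairs numbered 5, 3 on deviations from group means and 1 to 5 with single libraries left out (1 without AAV_sh1, 2 without AAV_NC1 or AAV_NC3). The r of Hba-a2 with Alas2 ran from -0.0337 without AAV_sh1 to 0.753 without AAV_sh3.

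Replicate numbers did not pair the samples: same-numbered libraries' deviations correlated at -0.11 to 0.01, and 0 of 4 libraries matched their own number best. With the replicate block, 11 genes, 7 list genes and 0 of the 5 genes were called.

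Depth limited Alas2, at 25 to 43 counts a library, and genes under the filter.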
